A study of Mus musculus with 24 samples.

Results

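The genes described here code for the lysosome, the acidic compartment in which cells take macromolecules apart, and for autophagy, the pathway that encloses parts of the cytoplasm in a membrane and delivers them to it. They are 37 genes, chosen by name, and each was read from the brightest probe set that the annotation of the array pairs with that gene alone. Of the 37, 36 had such a probe set, among 22180 genes that did. Glb1, which codes for lysosomal beta-galactosidase, shares its probe set with a second gene and was not analysed here. Tfeb, a transcription factor that activates many lysosomal genes, had an intensity of 4.94 to 7.22 on all 24 arrays, below the minimum of 20, so its RNA could not be followed. The other 35 were among the 9908 genes tested.

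The RNA came from mouse embryonic fibroblasts (MEF), connective tissue cells taken from mouse embryos and used here at early passage. Cells at 0 h had spent 48 h in medium low in foetal calf serum, given as 0.5% in the sample protocol and the paper and as 0.1% in the design text. They were then given medium with 10% serum, which brings resting cells back into the cell cycle, and were sampled 0.5, 1 and 2 h later and every 2 h from then until 30 h. They were compared with unsynchronised MEF, which grew in 10% serum without the synchronising starvation. All cells shared the same basal medium and antibiotics, and no strain, genotype or number of embryos is given in the sources used here. The groups with 2 arrays each were 0, 12, 18 and 24 h and the unsynchronised cells, and the other 14 times had 1 array each. The duplicates are named biological replicates but are not described as separate cultures, so each p-value measures a spread between arrays that may be technical.

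Lysosomal enzymes are made in the endoplasmic reticulum, tagged with mannose 6-phosphate and carried by receptors to the lysosome, where a proton pump keeps the lumen acidic. In autophagy, the kinase Ulk1 and a lipid kinase complex with Becn1 start a membrane cup, Atg7 and Atg5 act in attaching proteins of the Atg8 family to it, and the closed vesicle fuses with a lysosome. In cells with ample nutrients and growth factors the kinase complex mTORC1 holds Ulk1 and Tfeb inactive, and starvation relieves both.

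The arrays differed little in overall brightness, and between 29.1% and 30.8% of probe sets reached 20 on each. Over the log2 intensities of the 9908 genes, Pearson's r between duplicates was lowest for the 0 h pair (0.97) and was 0.986 to 0.992 for the other 4 pairs. The SD between duplicates (log2) was likewise largest at 0 h (0.29, against 0.16 to 0.20 elsewhere), and the first 0 h array stood apart for several of the genes described here. Psap, for example, had 1125 and 1773 at 0 h, against 1246 and 1203 in unsynchronised cells. The test used below takes 1 spread per gene over all groups. The SEs and p-values of comparisons with 0 h may therefore be too small. All 11 fibroblast markers, among them Vim, Col1a1 and Fn1, were above 180 on every array. Of 8 epithelial and endothelial markers, Epcam, Cdh1 and Pecam1 were below 20 on every array and the others reached it on 1 to 9 arrays. Of these, the endothelial receptor gene Tek had 25.2 and 30.2 at 0 h and 6.92 and 5.90 at 24 h. Unsynchronised cells had 4.94 and 6.43. Tek reached 20 only at 0, 0.5 and 1 h, so it entered the test through times where it was high, and no size is given. Kdr, the only other of the 8 that was tested, had 15.0 and 11.4 at 0 h and 13.7 and 12.8 at 24 h. It had 15.4 and 20.4 in unsynchronised cells and was not called in any comparison among these groups. Kdr was called higher than at 0 h over 4 h and 6 h together and at 12 h. It had 53.4 at 6 h, 66.2 at 8 h and 20.4 and 33.1 at 12 h. Both of its 0 h arrays were below 20, so no size is given. The part of endothelial cells in the results was not tested.

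Many of the lysosomal and autophagy genes had higher RNA levels in starved cells than in unsynchronised cells, and how many passed the test depended on the arrays. Of the 35 genes tested, 20 were higher at 0 h (57.1%) and 0 were lower, whereas 21% of all genes tested were higher and 21.7% lower (limma's test, Benjamini-Hochberg adjusted p under 0.05). With an unadjusted p under 0.05 from limma, 25 were higher and 1 was lower. The median log2 difference was 0.54 for the 35 genes and -0.01 over all genes. Without the first or the second 0 h array, 22 and 18 were higher, and without the first or the second unsynchronised array, 16 and 15. Fitting only these groups also left 15 higher, and without the second 0 h array 2 were lower. The intensities below are linear, and those of different genes are not compared, since each probe set responds to its RNA in its own way.

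**Figure D1:**
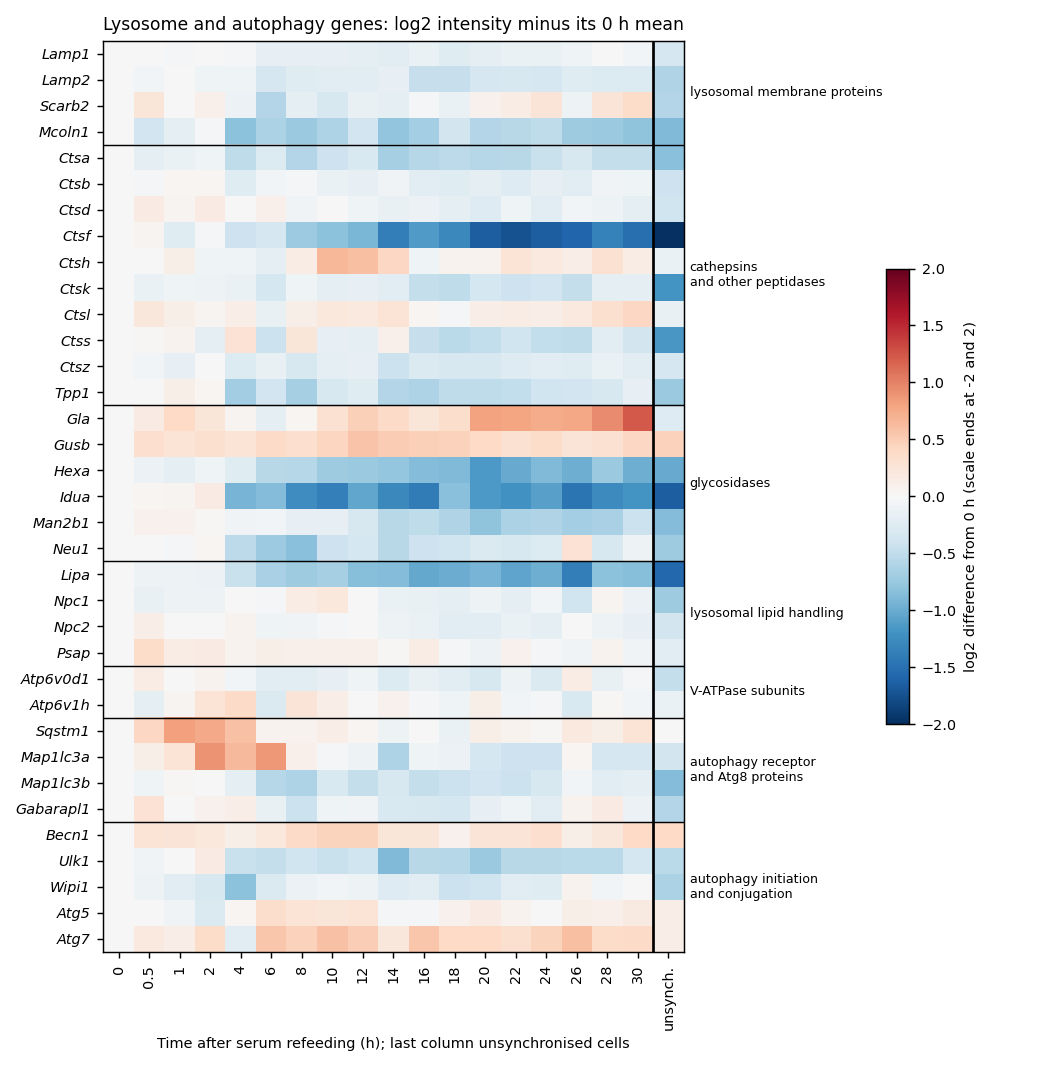
Mean log2 intensity of each of the 35 genes in each group, as the difference from its 0 h mean (colour). Genes are ordered by role down the page and groups by time, with unsynchronised cells at the right. Duplicate arrays are averaged, so their spread is not shown. Most rows are below their 0 h level in unsynchronised cells, and Ctsf, Idua, Lipa and Hexa are below it through the later times too.

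All 4 genes of the lysosomal membrane were higher at 0 h, against 21% of all genes. Mcoln1, a channel that releases calcium from the lysosome, had 311 and 224 at 0 h, against 150.5 and 138 in unsynchronised cells. The log2 difference was 0.88 (SE 0.17, adjusted p = 0.0020) in limma's test. Lamp2, a sheath protein of the membrane that also serves chaperone-mediated autophagy, had 969.9 and 939 at 0 h, against 683 and 580.3 in unsynchronised cells, and Lamp1, its most similar relative, had 1651 and 1691 at 0 h, against 1353 and 1307 in unsynchronised cells. The groups did not overlap for any of these genes, although the step of Lamp1 was small, at 0.33 on the log2 scale (limma, adjusted p = 0.048). Scarb2, which carries glucocerebrosidase to the lysosome, had 223 and 334 at 0 h, against 198 and 167 in unsynchronised cells (log2 difference 0.58, limma adjusted p = 0.029), and Lamp2 differed by 0.60 (limma, adjusted p = 0.0041).

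Among the 10 cathepsins and other peptidases, 6 were higher at 0 h (60%), against 21% of all genes. Ctsf had the largest difference of all 35 genes. Ctsf, a cysteine protease, had 135 and 128 at 0 h, against 32.4 and 31.8 in unsynchronised cells. The 4.09-fold difference between the groups was 2.03 (SE 0.15, adjusted p = 5.4e-06) on the log2 scale in limma's test. Ctsk, a collagen-degrading cysteine protease best known from osteoclasts, had 373 and 362 at 0 h, against 154 and 168 in unsynchronised cells. Its log2 difference was 1.19 (SE 0.15, adjusted p = 0.00015) in limma's test, with no overlap. Of the osteoclast markers, Acp5, Ocstamp, Dcstamp, Calcr and Oscar were below 20 on every array, and Mmp9 ranged from 17.4 to 553.

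Ctss, a cysteine protease abundant in cells that present antigen, had 189.8 and 144 at 0 h, against 77.4 and 71.3 in unsynchronised cells. Its log2 difference was 1.16 (SE 0.20, adjusted p = 0.0011) in limma's test. Ctsa, a carboxypeptidase that also stabilises Neu1, Tpp1, a tripeptidyl peptidase, and Ctsb, one of the most widely expressed cathepsins, were higher as well, by 0.84, 0.74 and 0.41 on the log2 scale (limma, adjusted p = 0.0018, 0.0049 and 0.019). The aspartic protease Ctsd and the cysteine proteases Ctsz, Ctsl and Ctsh did not pass the test. Their log2 differences were 0.40, 0.33, 0.15 and 0.13.

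Of the 6 glycosidases tested, 4 were higher at 0 h (66.7%), against 21% of all genes. Idua, which takes iduronic acid off heparan and dermatan sulfate, had 203 and 205 at 0 h, against 55.5 and 75.8 in unsynchronised cells. Its log2 difference was 1.65 (SE 0.17, adjusted p = 4.8e-05) in limma's test. Hexa, a subunit of the hexosaminidase that degrades gangliosides, had 950.4 and 960.0 at 0 h, against 481 and 464 in unsynchronised cells, with no overlap. The 2.02-fold difference was 1.01 (SE 0.125, adjusted p = 0.00013) on the log2 scale in limma's test. Man2b1, an alpha-mannosidase, and Neu1, a sialidase, were higher too. Man2b1 had 261 and 310.4 at 0 h, against 157 and 156 in unsynchronised cells, and Neu1 had 90.5 and 84.7 at 0 h, against 51.9 and 55.4 in unsynchronised cells. Their log2 differences were 0.87 and 0.71 (limma, adjusted p = 0.0013 and 0.0020). Gla, an alpha-galactosidase (0.25, limma adjusted p = 0.28), and Gusb, a beta-glucuronidase, did not pass the test. Gusb had 131 and 201 at 0 h, against 223 and 223 in unsynchronised cells, so its first 0 h array was the lowest and its log2 difference of -0.46 was negative (limma, adjusted p = 0.074).

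The lipid-handling genes were led by Lipa, the acid lipase that frees cholesterol and fatty acids from lipoproteins and lipid droplets. Lipa had 1355 and 1233 at 0 h, against 459 and 410.0 in unsynchronised cells. The 2.98-fold difference was 1.58 (SE 0.13, adjusted p = 1.4e-05) on the log2 scale in limma's test. Npc1, which moves cholesterol out through the lysosomal membrane, had 199 and 165 at 0 h, against 123 and 98.3 in unsynchronised cells, and also passed (limma, adjusted p = 0.0039). Its soluble partner Npc2 (0.37, limma adjusted p = 0.055) and Psap, the precursor of the saposins that present lipids to hydrolases (0.21, limma adjusted p = 0.42), did not. Neither did Atp6v0d1 and Atp6v1h, which are subunits of the proton pump, the V-ATPase, at 0.47 and 0.13 (limma, adjusted p = 0.0503 and 0.43).

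Of the 9 autophagy genes tested, 4 were higher at 0 h. They were 2 of the 4 receptor and Atg8 genes (50%) and 2 of the 5 initiation and conjugation genes (40%), against 21% of all genes. The median log2 difference was 0.47 over the receptor and Atg8 genes and -0.13 over the initiation and conjugation genes. Map1lc3b, an Atg8 protein that coats the growing membrane, had 1101 and 1196 at 0 h, against 729 and 544 in unsynchronised cells, with a log2 difference of 0.87 (SE 0.16, adjusted p = 0.0015) in limma's test. Gabarapl1, of the same family, had 282 and 368 at 0 h, against 218 and 213 in unsynchronised cells (log2 difference 0.58, limma adjusted p = 0.015). Wipi1, which binds the lipid that marks the membrane cup, and Ulk1 were higher by 0.63 and 0.54 (limma, adjusted p = 0.0027 and 0.046). The third Atg8 gene, Map1lc3a, and the cargo receptor Sqstm1 did not pass, with 0.37 and -0.01. Atg5, Atg7 and Becn1 did not pass either and had negative values, at -0.13, -0.13 and -0.39. Becn1 had 51.1 and 86.5 at 0 h, against 85.9 and 88.9 in unsynchronised cells, and the first starved array was the low one.

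Many markers of macrophages and leukocytes, cells rich in lysosomes, moved with these genes. Of 15 such markers 11 were tested. At 0 h 7 were higher (63.6%) and 0 lower than in unsynchronised cells in limma's test, against 21% and 21.7% of all genes. Ptprc, among those higher, reached 20 on only 2 arrays, at 0 h and 1 h. Cd14 (-0.49) and Itgam (-0.19) had negative log2 differences and were not called. The summed intensity of the 15 was 1763 and 2207 at 0 h and 1199 and 1458 at 24 h, against 1065 and 1093 in unsynchronised cells. Lyz2 weighed heavily in this sum. It alone had 813 and 1143 at 0 h and 645 and 787 at 24 h, against 517 and 628 in unsynchronised cells. Lyz2, Cd68 and C1qb were above 90 on every array, whereas Aif1 and Laptm5 were below 20 on all and Ptprc, Fcgr1 and Cx3cr1 on nearly all. Ctss and the lysosomal membrane protein gene Cd68 are highly expressed in macrophages. Fibroblast markers also moved, 8 of 11 higher (72.7%) and 2 lower (18.2%) at 0 h, against the same shares of all genes. The part of other cells in the differences was not tested, and in RNA from whole cultures fewer cells of a type and less RNA per cell cannot be told apart.

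**Figure D2:**
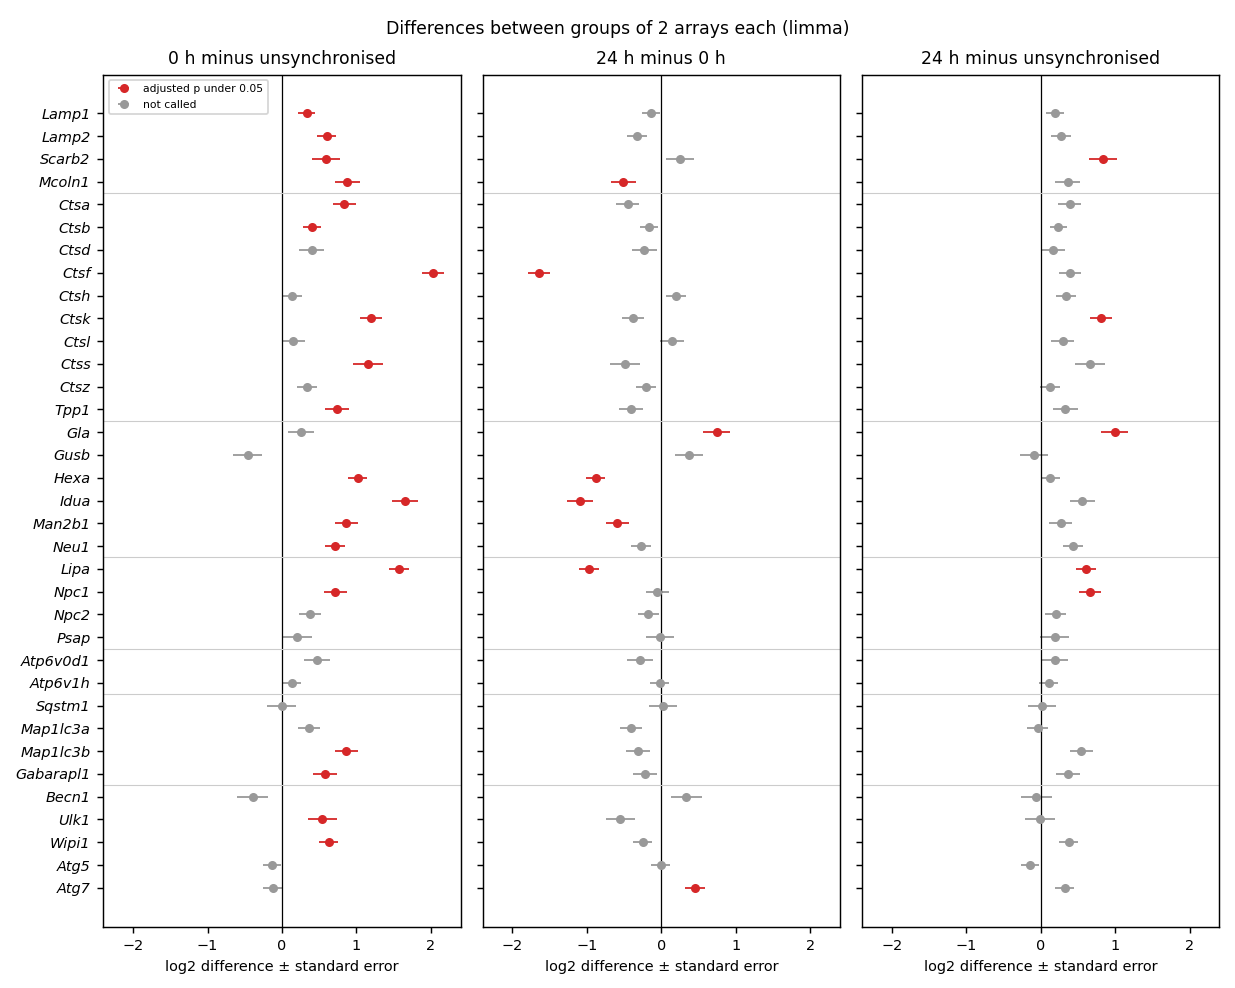
Log2 differences with their standard errors from limma for each of the 35 genes, in 3 panels for 0 h minus unsynchronised, 24 h minus 0 h and 24 h minus unsynchronised cells, in red where the adjusted p was under 0.05 and in grey otherwise. In the left panel 20 genes are red, all to the right of 0, in the middle panel 6 are red to the left of 0 and 2 to the right, and in the right panel 5 are red, all to the right.

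The promoters of some of these genes carry the letters CACGTG, an E-box that Tfeb and its relatives bind, as do other factors such as Myc. In the RefSeq promoters (GRCm38.p6, 250 bases before to 50 after the start), 29 of the 35 genes had an entry and 10 of them (34.5%) held CACGTG, against 12.2% of 7904 tested genes and 8.09% of all 27025 promoters. This palindrome reads the same on both strands. The longer TCACGTG, which contains it and was searched on both strands, was found in 7 of the 29 (24.1%), against 7.31% of tested genes and 4.29% of all. The genes with a match were Lamp1, Mcoln1, Ctsa, Ctsd, Ctsf, Ctsl, Gla, Atp6v0d1, Atg5 and Atg7. The 150 bases before the start follow, 5′ to 3′, for 3 of the 6 genes that were lower at 24 h than at 0 h, 2 with a match and 1 without, and for Lamp1, which was added after its matches were seen because it held 4 of them. Capitals mark CACGTG. They lie at chr8:3500369-3500518 (plus strand), chr19:4855015-4855164 (plus strand), chr19:34527475-34527624 (minus strand) and chr8:13159011-13159160 (plus strand).
Mcoln1: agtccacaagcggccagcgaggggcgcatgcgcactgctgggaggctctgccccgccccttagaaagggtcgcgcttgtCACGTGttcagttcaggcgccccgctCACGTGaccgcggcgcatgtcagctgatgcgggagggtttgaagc
Ctsf: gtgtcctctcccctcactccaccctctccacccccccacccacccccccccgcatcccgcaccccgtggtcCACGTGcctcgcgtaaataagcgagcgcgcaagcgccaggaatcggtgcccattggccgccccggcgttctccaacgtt
Lipa: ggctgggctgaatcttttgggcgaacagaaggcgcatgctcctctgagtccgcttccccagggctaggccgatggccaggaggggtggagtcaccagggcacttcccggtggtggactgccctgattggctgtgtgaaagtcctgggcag
Lamp1: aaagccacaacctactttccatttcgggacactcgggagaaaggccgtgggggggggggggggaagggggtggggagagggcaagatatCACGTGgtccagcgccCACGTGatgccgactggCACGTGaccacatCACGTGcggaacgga
Ctsf, with the largest difference at 0 h, holds 1 match. Of the 6 genes lower at 24 h than at 0 h, 2 (Mcoln1 and Ctsf) hold a match and 4 (Lipa, Idua, Hexa and Man2b1) hold none in the promoter window. The 2 genes higher at 24 h than at 0 h, Gla and Atg7, both hold a match. Among the genes with a match, Lamp1, Mcoln1, Ctsa and Ctsf were higher at 0 h than in unsynchronised cells. Ctsd, Ctsl, Gla, Atp6v0d1, Atg5 and Atg7 were not called there. Lamp1, with 4, had the smallest difference of the 20 genes that were higher. A match of letters is no evidence that a factor was bound, and no match says only that these letters are not in the window.

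After refeeding, the first hours brought a fall in some of these genes. The 4 h and 6 h arrays together were lower than 0 h for 7 of the 35 genes (20%) and higher for 1, against 22.8% of all genes lower and 15.1% higher, so the share lower was near that of all genes. Those lower were Mcoln1, Tpp1, Hexa, Idua, Neu1, Lipa and Wipi1, and the count was 5 without the 4 h array and 5 without the 6 h array. The median log2 difference was -0.14, against -0.07 over all genes. These times have 1 array each, which limma takes to vary as the duplicated groups do.

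The fall was not gradual in every gene. Idua had 203 and 205 at 0 h, 209 at 0.5 h, 211 at 1 h and 228 at 2 h, and then 107 at 4 h and 112 at 6 h. It thus stayed at its starved level up to 2 h and was at 0.537 times that level over 4 h and 6 h together, a log2 difference of -0.90 (SE 0.17, limma adjusted p = 0.0023). Tpp1 had 1369.8 and 1383 at 0 h, 1414 at 2 h, 851 at 4 h and 1059.7 at 6 h. Mcoln1 had 311 and 224 at 0 h, 258 at 2 h, 150.3 at 4 h and 169.8 at 6 h. In these genes the 4 h array was the lowest of the first 6 h. From the 2 h to the 4 h array 27 of the 35 genes moved down (77.1%, median -0.17), as did 56.1% of all genes (median -0.07), and 10 of the 35 moved down by more than 0.3, as did 32.0% of all genes. With 1 array at each time no test of this step was made.

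**Figure D3:**
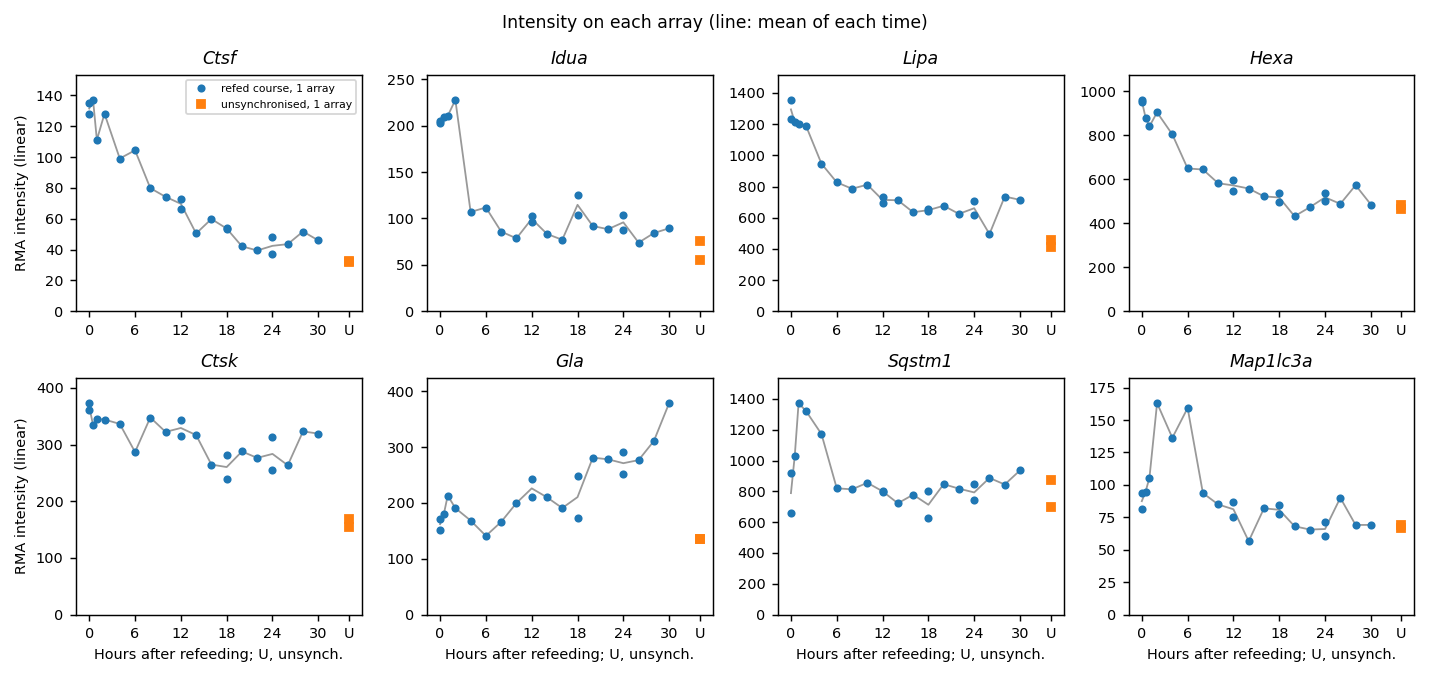
Linear intensity on each array (points) and the mean at each time (line) against hours after refeeding for Ctsf, Idua, Lipa, Hexa, Ctsk, Gla, Sqstm1 and Map1lc3a, with the unsynchronised arrays at the right of each panel. Ctsf declines to 36.9 and 48.1 at 24 h, Idua steps down between 2 h and 4 h, Gla ends at 379 at 30 h, and Sqstm1 and Map1lc3a are highest at 1 h and 2 h.

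The autophagy genes Map1lc3a and Sqstm1 went the other way early on, and their courses are given after their values were seen. Map1lc3a had 93.7 and 81.2 at 0 h, 106 at 1 h, 163 at 2 h, 136 at 4 h, 159 at 6 h and 93.7 at 8 h. It was the 1 gene higher at 4 h and 6 h together, by 0.76 on the log2 scale (SE 0.15, limma adjusted p = 0.0024). Without the second 0 h array 5 genes were higher, and without the 4 h array 2 were. Sqstm1 had 661 and 916 at 0 h, 1032 at 0.5 h, 1373 at 1 h, 1319.9 at 2 h, 1172 at 4 h and 819.9 at 6 h. Its arrays from 0.5 h to 4 h were all above both 0 h arrays, and its difference for 4 h and 6 h together did not pass (0.33, limma adjusted p = 0.20). The F test over the 17 times after 0 h called Map1lc3a (limma, adjusted p = 0.0028) and not Sqstm1 (limma, adjusted p = 0.13).

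In that F test 9 of the 35 genes changed over the course (25.7%), against 43.8% of all genes. They were Ctsf, Ctsh, Gla, Hexa, Idua, Man2b1, Neu1, Lipa and Map1lc3a, so 5 of the 6 glycosidases tested were among them.

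At the later duplicated times the lower genes outnumbered the higher ones. The share lower was near that of all genes at 12 h and at 24 h. At 12 h, 5 of the 35 were lower than at 0 h (14.3%) and 3 higher (8.57%), against 11.8% and 18.9% of all genes. The lower ones were Ctsf, Hexa, Idua, Lipa and Map1lc3b, and the higher ones Ctsh, Gusb and Atg7. At 18 h, 11 were lower (31.4%) and 1 higher (2.86%), against 14.7% and 15.7% of all genes. Those lower were Lamp2, Ctsa, Ctsf, Ctsk, Tpp1, Hexa, Idua, Man2b1, Neu1, Lipa and Wipi1. At 24 h, 6 were lower (17.1%) and 2 higher (5.71%), against 12% and 14.5% of all genes. These 6 were Ctsf, Idua, Lipa, Hexa, Man2b1 and Mcoln1. The medians over the 35 genes were -0.15, -0.25 and -0.23 at 12, 18 and 24 h, against 0.08, 0.00 and 0.02 over all genes. All 3 comparisons use the same 0 h arrays, as does that of 0 h with unsynchronised cells.

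The counts moved with single arrays. The 11 genes lower at 18 h were 6 without the first 0 h array and 4 without the second 18 h array, and the 6 lower at 24 h were 4 without the first 24 h array. The 3 genes higher at 12 h became 1 when the first 0 h array was left out, 5 when the other 0 h array was, 0 when the first 12 h array was and 1 when the other 12 h array was. The 2 higher at 24 h, Gla and Atg7, became 0 when the first 0 h array was left out, 5 when the other 0 h array was, 1 when the first 24 h array was and 0 when the other 24 h array was. The 1 gene higher at 18 h, Atg7, was not called without the first 0 h array or the first 18 h array, and 3 were called without the second 0 h array.

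Ctsf fell furthest. It had 135 and 128 at 0 h, 104 at 6 h, 66.5 and 72.9 at 12 h, 54.2 and 53.1 at 18 h, 36.9 and 48.1 at 24 h and 46.0 at 30 h. At 24 h its log2 difference from 0 h was -1.64 (SE 0.15, adjusted p = 4.1e-05) in limma's test. Each duplicated time lay below the one before it without overlap, and all times stayed above the unsynchronised arrays.

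Lipa, Hexa and Idua were lower at 24 h as well, and at 12 h their log2 differences from 0 h were already -0.86, -0.74 and -1.03. Lipa had 1355 and 1233 at 0 h, 827 at 6 h, 735 and 694 at 12 h, 641 and 657 at 18 h and 705 and 617 at 24 h, and its log2 difference at 24 h was -0.97 (SE 0.13, adjusted p = 0.00048) in limma's test. Hexa had 950.4 and 960.0 at 0 h, 649 at 6 h, 547 and 597 at 12 h, 496 and 537 at 18 h and 500.3 and 535 at 24 h, with a log2 difference at 24 h of -0.88 (SE 0.125, adjusted p = 0.00056) in limma's test. Idua had 203 and 205 at 0 h, 96.1 and 103 at 12 h, 125 and 104 at 18 h and 88.1 and 104 at 24 h, a log2 difference at 24 h of -1.09 (SE 0.17, adjusted p = 0.0011) in limma's test. For these genes the 12, 18 and 24 h arrays all lay below both 0 h arrays.

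Man2b1 and Mcoln1 fell less. Man2b1 had 171 and 207 at 24 h, against 261 and 310.4 at 0 h, with a log2 difference of -0.59 (SE 0.155, adjusted p = 0.017) in limma's test, and it was not called without the second 0 h array (-0.47) or the first 24 h array (-0.46). Mcoln1 had 171 and 201 at 24 h, against 311 and 224 at 0 h, with a log2 difference of -0.51 (SE 0.17, adjusted p = 0.045) in limma's test. Its call rested on single arrays, since it was lost without the first 0 h array (-0.27) and without either 24 h array (-0.39 and -0.63), and with each array centred on its median or with no minimum intensity (limma, adjusted p = 0.055 and 0.068). Ctsk, at -0.38 (limma, adjusted p = 0.084), and Ctss, at -0.49 (limma, adjusted p = 0.098), did not pass at 24 h. Of the 11 macrophage and leukocyte markers tested, 6 were lower (54.5%) and 1 higher (9.09%) at 24 h than at 0 h in limma's test. The shares of all genes were 12% and 14.5%. The part of these markers' cells in these values was not tested.

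**Figure D4:**
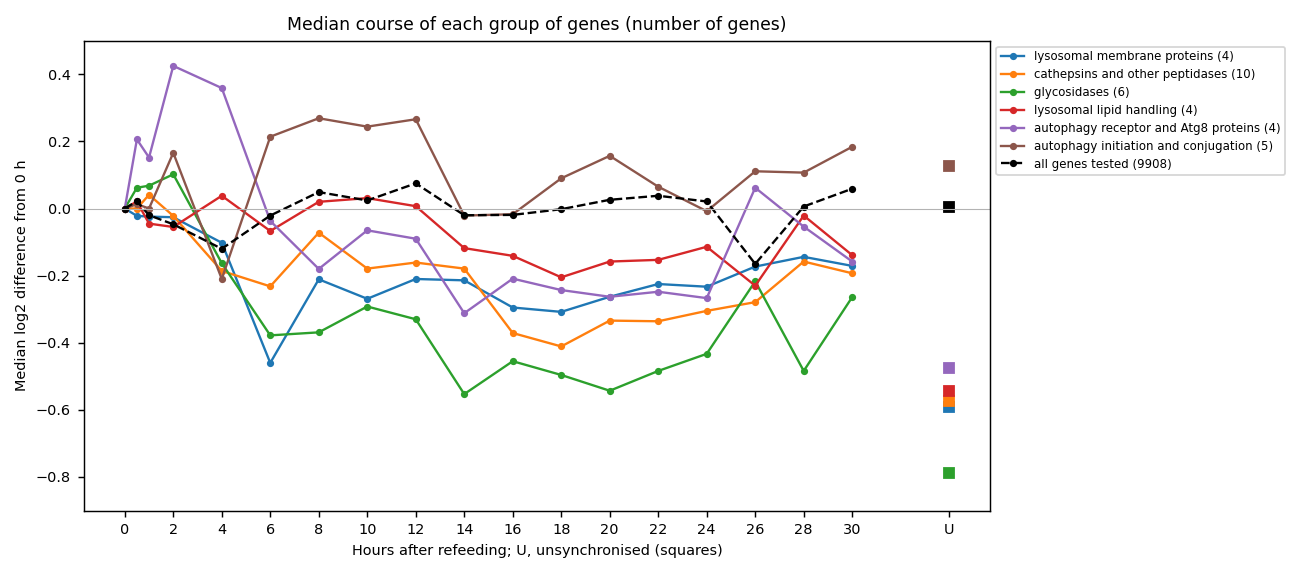
Median log2 difference from the 0 h mean over the genes of each role (coloured lines, number of genes in the legend) and over all 9908 genes tested (dashed line), against hours after refeeding, with unsynchronised cells as squares at the right. The 2 V-ATPase genes are not drawn. At 18 h (-0.50) and 24 h (-0.43) the glycosidases are the lowest of the roles drawn, though not at every time. The autophagy receptor and Atg8 genes reach 0.42 at 2 h.

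A few genes rose over the course. Gla had 152 and 172 at 0 h, 242 and 210.1 at 12 h, 248 and 173 at 18 h, 251 and 291 at 24 h and 379 at 30 h, the highest of the 24 arrays. Its log2 difference at 24 h was 0.74 (SE 0.18, adjusted p = 0.011) from 0 h in limma's test, and it was not called without the first 0 h array (0.66) or the second 24 h array (0.64). Atg7, the enzyme that activates Atg8 and Atg12 proteins for conjugation, had 58.6 and 63.7 at 24 h, against 41.7 and 48.0 at 0 h. The log2 difference was 0.45 (SE 0.13, adjusted p = 0.026) in limma's test, and the call was lost without the first 0 h array and without either 24 h array (0.35 to 0.51). Ctsh had 81.6 and 75.5 at 12 h, against 52.8 and 50.9 at 0 h, and was back at 57.0 and 52.2 by 18 h. Its rise at 12 h was 0.60 on the log2 scale (limma, adjusted p = 0.0070). Gusb was higher at 12 h by 0.57 (limma, adjusted p = 0.043), with 226 and 258 at 12 h, against 131 and 201 at 0 h, with the first 0 h array the lower of the pair.

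Some of these genes were higher after a day in full serum than in unsynchronised cells. Of the 35, 5 were higher at 24 h than in unsynchronised cells (14.3%) and 0 were lower, against 3.01% of all genes higher and 1.56% lower. With an unadjusted p under 0.05 from limma, 15 were higher and 0 lower, and the median log2 difference was 0.29, against 0.02 over all genes. The 5 were Gla, Ctsk, Scarb2, Npc1 and Lipa. Ctsk had 254 and 313 at 24 h, against 154 and 168 in unsynchronised cells, a log2 difference of 0.81 (SE 0.15, adjusted p = 0.014) in limma's test. Gla had 251 and 291 at 24 h, against 136 and 135 in unsynchronised cells, a log2 difference of 0.99 (SE 0.18, adjusted p = 0.013) in limma's test. Scarb2 had 325 and 327 at 24 h, against 198 and 167 in unsynchronised cells, and Lipa had 705 and 617 at 24 h, against 459 and 410.0 in unsynchronised cells. The groups did not overlap for any of the 5. The count depended on each array, being 0 without either unsynchronised array or the second 24 h array and 1 without the first 24 h array.

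Other genes of the pathway, listed by role, were counted in the same way. Of 39 other lysosomal hydrolases, their cofactors and membrane proteins tested, 23 were higher at 0 h than in unsynchronised cells (59%) and 2 lower (5.13%), with a median of 0.58, against 21% and 21.7% of all genes. At 24 h, 11 were lower than at 0 h (28.2%) and 2 higher (5.13%), against 12% and 14.5% of all genes. Gm2a, which presents ganglioside to hexosaminidase, had 289 and 344 at 0 h and 137 and 180.4 at 24 h, against 103 and 122 in unsynchronised cells. Its log2 differences in limma's test were 1.49 (SE 0.16, adjusted p = 6.6e-05) at 0 h from unsynchronised cells and -1.0 (SE 0.16, adjusted p = 0.0014) at 24 h from 0 h. Ctns, the cystine exporter, was higher at 0 h by 1.57 (SE 0.14, adjusted p = 2.2e-05) in limma's test, and Slc17a5, a sialic acid exporter, was lower at 24 h, at -0.90 (SE 0.15, adjusted p = 0.0014). Litaf, a late endosomal membrane protein, and Galc, which degrades galactosylceramide, ran the opposite way, at -0.48 (SE 0.13, adjusted p = 0.014) and -0.46 (SE 0.16, adjusted p = 0.038) at 0 h in limma's test and 0.68 (SE 0.13, adjusted p = 0.0040) and 0.59 (SE 0.16, adjusted p = 0.020) at 24 h from 0 h. Galc was not called at either time without the first 0 h array (-0.25 and 0.37), and Litaf was not called at 0 h without that array (-0.38) or either unsynchronised array (-0.48 and -0.49).

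The sorting receptors included large differences. Of 9 genes of mannose 6-phosphate tagging and sorting, 4 were higher at 0 h than in unsynchronised cells (44.4%) and 1 was lower (11.1%), against 21% and 21.7% of all genes. At 24 h, 3 were lower than at 0 h (33.3%) and 1 higher (11.1%), against 12% and 14.5% of all genes. Sort1, which carries lysosomal proteins from the Golgi, had 197 and 154 at 0 h and 68.1 and 58.9 at 24 h, against 37.5 and 46.5 in unsynchronised cells. Its log2 differences were 2.06 (SE 0.17, adjusted p = 1.2e-05) at 0 h and -1.46 (SE 0.17, adjusted p = 0.00017) at 24 h from 0 h in limma's test. Igf2r, the large mannose 6-phosphate receptor, had 692 and 797 at 0 h, against 310.5 and 288 in unsynchronised cells, with log2 differences of 1.31 (SE 0.13, adjusted p = 4.2e-05) and, at 24 h from 0 h, -0.76 (SE 0.13, adjusted p = 0.0021) in limma's test. M6pr, the small receptor, was lower at 0 h, at -0.68 (SE 0.15, adjusted p = 0.0049) in limma's test. Gnptab, a subunit of the enzyme that adds the tag, was higher at 24 h than at 0 h by 0.54 (SE 0.14, adjusted p = 0.013) in limma's test, but not without the first 0 h array (0.39) or either 24 h array (0.55 and 0.53).

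Of 14 other V-ATPase subunits, 4 were higher at 0 h than in unsynchronised cells (28.6%) in limma's test, a share near the 21% of all genes, with a median of 0.26 over the 14. Atp6v0e2 had 106 and 101 at 0 h, against 46.9 and 47.6 in unsynchronised cells, at 1.13 (SE 0.13, adjusted p = 0.00011) in limma's test. Atp6v0e had 972 and 525 at 0 h, against 391 and 406 in unsynchronised cells, at 0.84 (SE 0.23, adjusted p = 0.014) in limma's test, but its log2 difference was 0.40 and not called without the first 0 h array, and it was not called without either unsynchronised array (0.82 and 0.87). Of 19 genes of the Tfeb family and of mTORC1 at the lysosome, 7 were higher (36.8%) and 1 lower (5.26%) at 0 h, against 21% and 21.7% of all genes, and 1 was higher and 1 lower at 24 h than at 0 h (5.26% each, against 14.5% and 12%). Those higher at 0 h include Slc38a9, a lysosomal arginine sensor, at 0.78 (SE 0.19, adjusted p = 0.0064) in limma's test, which was not called without the second unsynchronised array (0.70). Rragd, a GTPase that recruits mTORC1 to the lysosome, was also among the 7, but only 1 of these arrays reached 20. It had 13.8 and 27.0 at 0 h, against 9.71 and 11.7 in unsynchronised cells, too low for a size to be given. Tfec, a relative of Tfeb, makes up the 1 lower gene at 0 h and the 1 higher at 24 h. It was below 20 on all 4 arrays at 0 h and of unsynchronised cells and entered the test through later arrays, so neither call is given a size. Mitf, another relative, was higher at 0 h than in unsynchronised cells by 0.68 (SE 0.17, adjusted p = 0.0085) in limma's test. It was lower at 24 h than at 0 h, at -0.53 (SE 0.17, adjusted p = 0.041) in limma's test, but not without the first 0 h array (-0.37) or either 24 h array (-0.64 and -0.42). Tfe3, also a relative, was not called in either comparison (-0.003 and -0.013, limma adjusted p = 0.99 and 0.96). The Tfe3 values and the 0 h value of Mitf were not recomputed with arrays left out.

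Of 26 other core autophagy genes, 9 were higher (34.6%) and 1 lower (3.85%) at 0 h than in unsynchronised cells (median 0.13), against 21% and 21.7% of all genes. At 24 h, 2 were lower than at 0 h (7.69%) and 1 higher (3.85%), against 12% and 14.5% of all genes. Atg10, an enzyme that attaches Atg12 to Atg5, was higher at 0 h by 1.36 (SE 0.18, adjusted p = 0.00022) and lower at 24 h, at -0.85 (SE 0.18, adjusted p = 0.0058) in limma's test. Atg9a, a lipid scramblase of the early membrane, was higher at 0 h by 0.82 (SE 0.19, adjusted p = 0.0066) in limma's test, but by 0.52 and not called without the first unsynchronised array. Atg4d, a protease of Atg8 proteins, was lower in the test but near the minimum, with 17.5 and 19.5 at 0 h, against 23.5 and 26.5 in unsynchronised cells, and it was called only with all of these arrays or without the second 0 h array. Atg14, which directs the Becn1 complex to autophagy, was lower and Atg2b, a lipid transfer protein, higher at 24 h than at 0 h, at -0.88 (SE 0.24, adjusted p = 0.019) and 0.44 (SE 0.12, adjusted p = 0.022) in limma's test. Neither was called without the first 24 h array (-0.50 and 0.39), nor was Atg14 without the second 0 h array (-0.75) or Atg2b without the first (0.40). Atg14 was near the minimum, with 16.4 and 28.1 at 24 h, against 35.9 and 43.5 at 0 h. Only 1 of its 24 h arrays reached 20. Of 15 other autophagy receptors and fusion genes, 6 were higher (40%) at 0 h in limma's test, against 21% of all genes, and 1 was higher and 1 lower at 24 h than at 0 h (6.67% each, against 14.5% and 12%). The receptor Calcoco1 differed by 1.43 (SE 0.18, adjusted p = 0.00013) at 0 h and by -0.94 (SE 0.18, adjusted p = 0.0029) at 24 h from 0 h in limma's test, and Stx17, which fuses the autophagosome with the lysosome, by 0.71 (SE 0.16, adjusted p = 0.0048) at 0 h. Bnip3, a receptor for mitochondria, was higher at 24 h than at 0 h by 1.08 (SE 0.20, adjusted p = 0.0031) in limma's test.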

How the data were processed

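Total RNA of 24 MEF samples was hybridised to Affymetrix Mouse Gene 2.0 ST arrays. The authors checked array quality with ArrayQualityMetrics and normalised with RMA in oligo, with versions not given in the sources used here. RMA removes background and gives all arrays one distribution, so a shift shared by all genes cannot be seen. The deposited intensity values (1.74 to 6335) are on a linear scale despite a header that says log2, and both deposited tables are identical (largest difference 0). Log2 was taken here. Of 41345 probe sets, 23521 had 1 gene, 1820 several and 16004 none listed. Those with 1 gene that reached 20 on at least 2 arrays (10263) gave 9908 genes, each by its brightest probe set. limma 3.58.1 in R 4.3.3 fitted 1 mean for each of 19 groups (5 residual and 5.58 prior degrees of freedom), with two-sided tests adjusted by Benjamini-Hochberg over the 9908 genes and called at 0.05. The number of arrays limits the precision. The fit was tested on simulated data. Python 3.11.15, pandas 2.3.3 and matplotlib 3.10.9 served counts, promoter searches and figures. Every gene was named, with values per array for those with the largest called differences, and for the other pathway lists up to 2 genes in each direction. Tfe3 was added after its values were seen. Genes and lists were chosen with earlier results of these data known. Alternatives were other minima, each probe set tested separately, median centring, repeated quantile normalization, trend and robust moderation, a 2-fold rule, only the groups compared, a replicate block and each array left out. For genes of the other pathway lists, leaving out each array was added after seeing the data.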

Additional observations from a re-analysis of the deposited data

How the results depend on the processing

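The 20 genes higher at 0 h than in unsynchronised cells numbered 15 to 22 when each array of these groups was left out in turn, and the 0 lower numbered 0 to 2. Leaving out each array likewise gave 1 to 5 higher and 5 to 7 lower for 4 h and 6 h against 0 h, 0 to 5 higher and 4 to 5 lower for 12 h, 0 to 3 higher and 4 to 10 lower for 18 h, 0 to 5 higher and 4 to 8 lower for 24 h against 0 h, 0 to 1 higher and 0 to 0 lower for 24 h against unsynchronised cells, and 7 to 13 in the F test. Requiring a 2-fold change left 6 higher at 0 h against unsynchronised cells, 0 higher and 0 lower at 4 h and 6 h, 0 higher and 1 lower at 12 h, 0 higher and 1 lower at 18 h, 0 higher and 2 lower at 24 h, and 0 higher at 24 h against unsynchronised cells. Fitting only the groups compared, with fewer arrays for the variance, gave 0 higher and 1 lower at 4 h and 6 h, 1 higher at 12 h, 0 higher and 4 lower at 18 h, and 1 higher at 24 h. With a variance trend and robust moderation 10 were lower at 24 h and 0 higher at 18 h, and without a minimum intensity 0 were higher at 18 h. The cause of these last changes was not tested. Same-numbered arrays did not deviate together (correlations of -0.37 to 0.22 over 10 pairs of groups), so the numbers are not taken to pair the samples. With the replicate number as a block, over duplicated groups only, 18 were higher at 0 h against unsynchronised cells, 9 were lower and 0 higher at 18 h, and 5 were lower at 24 h. Of the recomputed log2 differences of the 10 genes named first by size, 235 kept their direction and side of the threshold, 24 kept their direction but lost the call and 1 gained it. With each array left out in turn, an alternative chosen after seeing the data, 93 differences of the named genes of the other pathway lists kept their direction and call and 31 lost the call. Low signal limits what can be said of genes near an intensity of 20, and Tfeb, below it, gave no test.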
